A study of Rattus norvegicus with 2 samples.

Results

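The cells described here are 60 cells of young and 1 cell of aged rat meniscus that carried many transcripts of Col1a1, the main collagen of fibrous tissue and bone, together with Postn, which encodes the matricellular protein periostin. They were chosen by their own counts: at least 100 Col1a1 UMIs, at least 5 Postn UMIs and under 10 UMIs of Col2a1, the cartilage collagen, in barcodes that passed a floor of 500 genes and a ceiling of 20% mitochondrial UMIs. A UMI marks 1 captured RNA molecule. The 61 cells are drawn from 14858 kept barcodes, 60 of 8773 young (0.684%, exact Clopper-Pearson 95% interval 0.522 to 0.879) and 1 of 6085 aged (0.0164%, 0.000416 to 0.0915). Because these values chose the cells, the levels of the 3 genes, and all differences from other cells of the same libraries, are descriptions and carry no test.

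Meniscus, the fibrocartilage pad of the knee, was dissociated with protease and collagenase P, sorted for viable cells and profiled with a 10x Genomics 3' kit. There was 1 library from aged and 1 from young tissue, and the labels give no strain, sex, genotype, age in weeks or number of animals, so neither library has a replicate. Intervals throughout are 95% intervals for counting error only. Blood lineage cells were abundant: at least 3 UMIs of the B lineage gene Cd79b were found in 6375 young (72.7%) and 2464 aged barcodes (40.5%). The libraries shared 18 barcodes, none of them among the 61 cells.

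Periostin and type I and III collagens are secreted by fibroblasts of tendon, ligament and periosteum, where periostin helps to organise and crosslink collagen fibrils. Osteoblasts also make type I collagen in bulk, and are told from fibroblasts by the transcription factors Runx2 and Sp7 and by mineralised matrix genes such as Bglap (osteocalcin), Ibsp (bone sialoprotein) and Spp1 (osteopontin). The outer meniscus is fibrous and anchored to bone through its horns.

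The cells had been proposed as fibrogenic or osteogenic, with Postn, Col1a1, Col3a1, Cpz, Bglap, Igf1 and Ptn as markers. Col1a1 and Postn chose the cells, Col3a1, Igf1, Cpz and Ptn were detected in them, and the counts went against the osteogenic marker. Cpz and Ptn do not set them apart from cartilage cells by presence alone, since 81.7% and 76.2% of 126 young cells rich in Col2a1 held a UMI of them without thinning. No young cell of the 60 held more than 1 Bglap UMI, and the 8 that were found lay in 8 cells. With every cell thinned to a depth of 2000 UMIs, 2 of 60 had a Bglap UMI (3.33%, 0.406 to 11.5), against 2.11% of 380 young B lineage barcodes with at least 3 Cd79a UMIs and 3.33% of 6131 with at least 3 Cd79b UMIs, cells that should lack the gene. The median depths before thinning were 19862, 9051 and 3688 UMIs, and without thinning the shares were 13.3%, 8.40% and 7.07%. Bglap in these cells was therefore at the background level of the library, and the cells are called Postn and Col1a1-rich below.

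Many other genes of bone formation were also absent or near 0, but not all. Sp7, Spp1, Mepe, Sost, Ifitm5, Omd, Tnfsf11, Dlx3, Dlx6 and Msx2 had 0 UMIs among the 1223134 UMIs of the 60 cells. A count of 0 in 60 thinned cells allows up to 5% of cells with an Sp7 or Spp1 UMI. Ibsp and Dmp1 had 1 UMI each. Runx2 had 4 UMIs, all in 1 cell. In the 3 young cells with at least 200 Bglap UMIs, described below, Sp7, Mepe and Omd were also at 0. Runx2 had 0, 1 and 2 UMIs there. Low counts of these genes therefore do not tell the 60 cells from Bglap-rich cells. Alpl, the phosphatase that starts mineral deposition, had 15 UMIs, 13 of them in 1 cell. Of 25 bone matrix and mineralisation genes, 8 were found in at least 20 of the 60 cells. Sparc, Serpinf1 and Mgp among them are also made by fibroblasts. Also among them were Fkbp11 (57 cells), Kazald1 (55), Cgref1 (50), Enpp1 (26) and Phex (20). Of 16 bone transcription factors and receptors, 7 were found in at least 20 cells, with Tent5a in 44, Pth1r in 26 and Lrp5 in 25. Creb3l1, a factor that drives collagen secretion, was found in 57 cells (406 CPM, that is UMIs per 1000000), and Twist1, which restrains osteoblast maturation, in 58 (213 CPM).

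The start regions of the gene that marked these cells and of the one that did not are shown for comparison, each the 250 bases upstream of the start in RefSeq on GRCr8, 5′ to 3′ on the gene's strand. Capitals mark ACCACA, the core of the motif bound by RUNX factors, and TATAAA, the letters of a TATA box, each searched on both strands. The motifs overlap nowhere here.
Bglap, chr2:176137319-176137568, minus strand: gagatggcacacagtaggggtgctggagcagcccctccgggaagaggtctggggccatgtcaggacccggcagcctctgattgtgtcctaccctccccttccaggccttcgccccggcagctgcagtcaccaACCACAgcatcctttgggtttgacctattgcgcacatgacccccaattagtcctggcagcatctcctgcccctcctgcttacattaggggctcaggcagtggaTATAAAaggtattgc
Postn, chr2:140677811-140678060, plus strand: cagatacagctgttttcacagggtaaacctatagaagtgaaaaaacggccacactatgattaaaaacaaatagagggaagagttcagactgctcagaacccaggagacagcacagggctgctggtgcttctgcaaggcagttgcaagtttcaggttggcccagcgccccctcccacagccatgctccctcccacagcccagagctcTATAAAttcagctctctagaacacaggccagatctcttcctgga
Both windows held 1 TATAAA, and 12.9% of 33469 RefSeq windows of this length held it. Its first base lay 15 bases upstream of the start for Bglap and 44 for Postn. Whether either match acts as a TATA box was not tested. ACCACA stood once upstream of Bglap and in 14.5% of all windows. For Postn these letters are not in this window, which says nothing of other sites. No window for Col1a1 or Col3a1 was used here.

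Bglap-rich cells were present in the young library, but outside the rule. The highest had 6363 Bglap UMIs (19.9% of its 32012 UMIs) with 2104 Col1a1 and 0 Postn UMIs, and the next had 5025 (28.6% of 17579) with 3322 Col1a1 and 0 Postn UMIs. Neither had a Col3a1 UMI, while they held 45 and 27 Ibsp and 531 and 122 Spp1 UMIs. A further cell had 212 Bglap, 56 Alpl and 21 Ibsp UMIs with 32 Postn and 41 Col3a1 UMIs, but 36 Col1a1 UMIs, too few for the rule. These 3 cells held 11600 of the 12299 young Bglap UMIs. In the aged library 6 cells held 1345 of 1366 Bglap UMIs, with 999, 115, 110, 88, 20 and 13 each. The highest of them had 972 Col1a1 and 0 Col3a1 and Postn UMIs, and the cell with 88 had 57 Col1a1 and 5 Postn UMIs. High Bglap and high Postn with high Col1a1 thus did not meet in any single kept cell of either library.

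**Figure D1:**
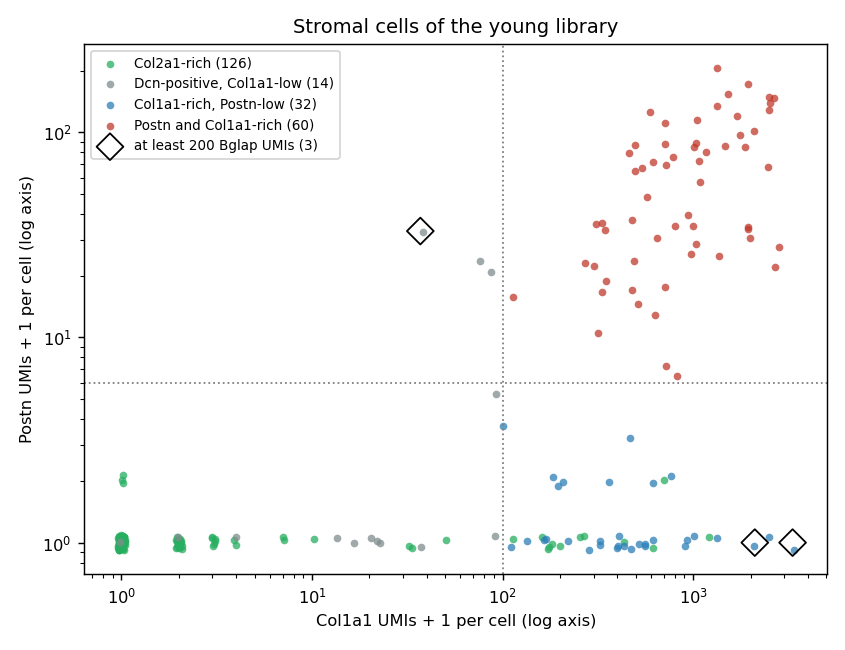
Postn against Col1a1 in stromal cells of the young library, in UMIs + 1 per cell on log axes, points shifted slightly at random so that equal counts can be seen; dotted lines mark the limits of 100 Col1a1 and 5 Postn UMIs, and open diamonds mark the 3 cells with at least 200 Bglap UMIs. The 60 Postn and Col1a1-rich cells fill the upper right, and the Bglap-rich cells lie at 0 Postn or below the Col1a1 limit.

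In the young library the limits fell in a sparse range. Col1a1 in the 60 cells ran from 114 over a median of 880.5 to 2919 UMIs, with the second lowest at 277. Just outside, 4 young cells had at least 5 Postn UMIs but 0, 36, 78 and 88 Col1a1 UMIs. Postn ran from 5 and 6 over a median of 49.5 to 195 UMIs. Another 32 young cells had at least 100 Col1a1 and under 10 Col2a1 UMIs with less Postn than the limit, 24 of them with 0 and the highest with 2 and 3. Col2a1 reached at most 1 UMI in the 60 cells, and no young cell met the Col1a1 and Postn limits with 10 or more Col2a1 UMIs. No barcode removed by the gene and mitochondrial limits met the rule. The 60 cells had 6785 to 60022 UMIs, 1692 to 6600 genes (median 3797) and 1.78% to 11.6% mitochondrial UMIs.

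Collagen led the RNA of these cells. Col1a1 took 5.42% of their UMIs, at 54179 CPM (53767 to 54593), and Col3a1, the collagen of pliable fibrous tissue, 4.89%, at 48929 CPM (48538 to 49323). In single cells Col3a1 ran from 168 over a median of 945 to 1995 UMIs. The fibrous collagen list, 17 genes in the files, took 10.7% of UMIs in all and from 2.48% over a median of 11.2% to 25.7% in single cells. Col6a2, of the beaded filament collagen around cells, stood at 2288 CPM and was found in all 60 cells. Col14a1, which decorates collagen fibrils, stood at 455 CPM (58 cells) and Col5a2, which limits fibril width, at 217 CPM (57 cells). Col12a1 was low at 28.6 CPM in 15 cells.

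The machinery that folds, trims and joins collagen was detected throughout. Of its 26 genes in the files, 12 were found in at least 54 of the 60 cells. Serpinh1, the collagen chaperone, stood at 2224 CPM, ranging from 14 over 44.5 to 95 UMIs per cell. Pcolce, which speeds removal of the C-terminal propeptide, stood at 3062 CPM (8, 53.0 and 245 UMIs at the lowest, median and highest cell). Lox, the crosslinking lysyl oxidase, was found in 54 cells at 329 CPM, and Adamts2, which removes the N-terminal propeptide, in 59 at 318 CPM. P4ha3, P3h2 and Loxl4 had 0 UMIs.

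Matrix proteins around the fibrils followed. Sparc, a collagen-binding glycoprotein, ran from 95 over 415 to 1617 UMIs per cell (25785 CPM). Postn itself summed to 3857 UMIs (3153 CPM, 3055 to 3254). Fn1, fibronectin, stood at 2517 CPM, Ccn3, a matricellular CCN protein, at 1358 and Fbn1, the fibrillin of microfibrils, at 811. Among the small leucine-rich proteoglycans, which bind and space fibrils, Dcn ran from 4 over 150.5 to 390 UMIs (7958 CPM), Bgn stood at 1800.3, Lum at 1694, Ogn at 543 and Aspn at 539 CPM. Fmod, the fibromodulin of tendon and cartilage, had 17 UMIs in all, and Chad, of cartilage, 5. The tendon genes Scx and Mkx had 1 and 0 UMIs.

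Secreted signals and their modulators came next. Igf1, insulin-like growth factor 1, was found in all 60 cells, from 1 over 19.5 to 131 UMIs (1192 CPM, 1132 to 1255). Its binding proteins Igfbp6 (3247 CPM, 60 cells) and Igfbp5 (1959 CPM, 50 cells) were present, while Igf2 had 7 UMIs in 1 cell and Igfbp1 and Igfbp2 had 0. Cpz, a carboxypeptidase with a WNT-binding domain, was found in 52 cells, up to 78 UMIs (795 CPM). Ptn, the heparin-binding growth factor pleiotrophin, was found in 35 cells, up to 417 UMIs (1809 CPM). After thinning, 76.7% of cells had an Igf1, 63.3% a Cpz and 46.7% a Ptn UMI, against 0%, 1.05% and 0.263% of the 380 Cd79a barcodes, where the 0 allows up to 0.789%. The WNT antagonists Sfrp2 (733 CPM, 35 cells) and Sfrp4 (479 CPM, 40 cells) were unevenly spread, with 176 and 151 UMIs in the highest cell. After thinning, 35.0% of the 60 cells and 6.58% of the Cd79a barcodes had an Sfrp2 UMI. The 126 Col2a1-rich cells held 1 Sfrp2 UMI in all, so the Cd79a share is not a background of the whole library. The source of Sfrp2 in the Cd79a barcodes was not tested.

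Genes of other cell types set limits on what the cells could hold. Pdgfra, the receptor that marks fibroblasts, was found in 58 of 60 cells at 201 CPM, and Dpt, dermatopontin, in all 60 at 2238 CPM. Pi16 and Dpp4, which mark adventitial fibroblasts, were found in 10 and 11 cells, and Cd248 had 0 UMIs. The 22 cartilage genes summed to 0.0147% of UMIs, with 6 at 0, no gene found in 20 cells and Sox9 in 17. Endothelial genes took 0.00237% and mural genes 0.00311%, with Acta2 and Tagln at 1 and 2 UMIs. Leukocyte transcripts were uneven. Of the 60 cells, 10 held a UMI of Ptprc, the pan-leukocyte gene CD45, 13 held at least 3 of Cd79b and 2 at least 20 of S100a8, in all 15 cells. A cell with 1265 S100a8 UMIs had 13.6% of its UMIs in the neutrophil list. The 15 cells had a median of 25190 UMIs against 18876 in the other 45, and a median Col1a1 level of 38904 against 52616 CPM, while median Igf1 was 1023 and 1043 CPM. Median Comp was higher in them, at 475 against 62.3 CPM, and so was median Ptn, at 249.9 against 163 CPM. Whether the 15 were doublets, and their part in the results, was not tested. The comparisons with other young cells were repeated without them, with the counts of genes given under the processing alternatives, and the values of the Ptn split without them stand beside it.

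**Figure D2:**
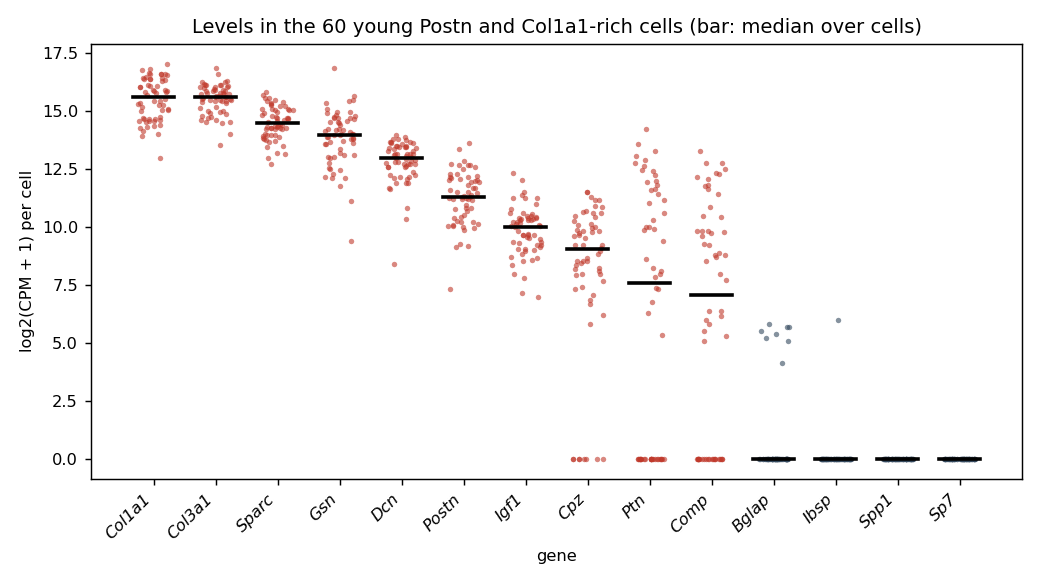
Levels of 14 genes in each of the 60 young Postn and Col1a1-rich cells, as log2(CPM + 1), 1 point per cell with a bar at the median over cells. Col1a1 to Igf1 were found in every cell, Cpz, Ptn and Comp had cells at 0, and Bglap, Ibsp, Spp1 and Sp7 lay at 0 or at 1 UMI per cell.

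The 1 aged cell had 6431 UMIs, of which 109 were Col1a1, 217 Col3a1, 27 Postn, 104 Dcn and 136 Gsn (gelsolin, an actin-severing protein). It held 0 Igf1, Ptn, Bglap and Comp, 2 Cpz and 15 Ccn5 UMIs. Col1a1 at 16949 CPM lay within the range of the young cells (7943 to 134192 CPM) and so did Postn at 4198 CPM (158 to 12738). With a single aged cell no ratio between the ages was formed. Other aged stromal cells were numerous: 592 kept aged barcodes had at least 3 Dcn and few Col1a1 and Col2a1 UMIs, against 14 young ones. Col1a1 in the 592 had a median of 7 and a maximum of 92 UMIs at a median depth of 5859 UMIs, and 23 of them had at least 5 Postn UMIs. In sum over the class, Col1a1 stood at 1781 CPM and Postn at 82.6 CPM in aged and at 2364 and 359 CPM in young Dcn-positive cells. A limit on raw UMIs admits fewer cells in a shallower library, and age, depth and dissociation cannot be told apart with 1 library each. At a limit of 50 Col1a1 UMIs the aged cells numbered 7.

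The 60 cells were then set against 3 other groups of young cells, by the ratio of summed CPM among genes with at least 20 summed UMIs. The first were 126 cells with at least 10 Col2a1 UMIs, of hyaline cartilage type. The Postn and Col1a1-rich cells carried far more Col3a1 (48929 against 1696 CPM, log2 ratio 4.85, interval 4.80 to 4.90), Igf1 (1192 against 14.7, 6.34, 5.82 to 6.93), Dcn (7958 against 158, 5.65) and Gsn (18306 against 854, 4.42). Among the highest named ratios were those of Sfrp2 (10.50, 8.02 to 15.81, 1 comparison UMI), Lum (10.12, 8.58 to 12.40, 3 UMIs) and Igfbp6 (8.48, 7.82 to 9.23), and Clec3b, tetranectin, was at least 463-fold higher. In all, 1389 of 7903 genes were at least 2-fold higher (17.6%) and 801 at least 2-fold lower (10.1%), with a median log2 ratio of 0.25. With TMM scaling 1024 were higher and 1028 lower, and with DESeq2 size factors 969 and 1084. The balance of these counts therefore rests on the scaling. All 11 measured universal-type fibroblast genes were at least 2-fold higher, with a median of 4.28. All 19 measured cartilage genes were lower, with a median of -7.55, Col2a1 by the rule itself, Snorc at -11.80 and Chad at -10.14. Sparc was lower at 25785 against 56374 CPM (-1.13), so a high level of this gene did not set the fibrous cells apart from cartilage cells. Against the Dcn-positive cells below, Sparc was higher, at 25785 against 6721 CPM (1.94, 1.86 to 2.02). Of 16 measured bone matrix genes 11 were lower and 2 higher, Phex (5.25, 2 comparison UMIs) and Serpinf1 (2.69). Ibsp was among the lower ones (1 against 1705 UMIs, -10.04, -15.35 to -7.56). Of those 1705, 805 lay in 1 cell, and the ratio without it was -9.13. Cpz differed by 0.67 (0.54 to 0.79), and Bglap by 0.52 (-1.05 to 2.07), an interval that holds 0.

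The second group, the 14 young Dcn-positive cells with under 100 Col1a1 UMIs, is small. Of 6055 genes 636 were at least 2-fold higher in the Postn and Col1a1-rich cells (10.5%) and 687 lower (11.3%), with a median of -0.20. With TMM scaling, which adds 0.36 to each log2 ratio, the split was 1034 higher and 325 lower, and with DESeq2 size factors 1024 and 332, so the balance of the counts rests on the scaling. Of 12 measured fibrous collagen genes 8 were higher, Col1a1 by the rule itself, and 1 lower, with a median of 1.56. The list was more even elsewhere: 7 higher and 7 lower of 16 against Col2a1-rich cells, and 6 higher and 5 lower of 15 against the third group, described below. Cpz stood at 795 against 32.2 CPM (4.63, 3.58 to 5.95), Igf1 at 1192 against 179 (2.73, 2.27 to 3.23) and Ptn at 1809 against 474 (1.93, 1.65 to 2.23). With so few cells a single one can set the comparison level: 5 of the 7 comparison UMIs of Cpz and 58 of the 103 of Ptn lay in 1 cell each, and without that cell the ratios were 6.31 and 3.03. Fndc1, a fibronectin domain protein (5.90), Sfrp2 (5.73, 4.18 to 8.01, 3 comparison UMIs) and Egfl6, an EGF-like matrix protein (4.94, 1 comparison UMI), were also among the highest. Ngp, a neutrophil granule gene, was at 5.04 but at 1.85 without the cell of highest count. Lower were Prg4, the joint lubricant (-7.04, -7.56 to -6.56), and Fn1 (-1.91), where 985 of 2063 comparison UMIs lay in 1 cell and the ratio without it was -1.18. Igfbp5 stood at -1.61, but 930 of 1301 comparison UMIs lay in 1 cell, and without it the ratio was 0.00. Bglap (-7.23), Tagln (-9.40) and the chemokine Ccl4 (-6.88) rested on 1 comparison cell each, with 212 of 213, 239 of 240 and 105 of 105 UMIs. Without that cell the Bglap ratio was 0.39, and Ccl4 had no comparison UMI left.

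The third group, 32 cells rich in Col1a1 but low in Postn and Col2a1, was the closest match in Col1a1. There Col1a1 stood at 40214 CPM, a log2 ratio of 0.43 (0.41 to 0.45), Sparc at 28573 CPM (-0.15) and Dcn at 7109 CPM (0.16, 0.11 to 0.22). Of 6477 genes 710 were at least 2-fold higher in the Postn and Col1a1-rich cells (11.0%) and 373 lower (5.76%), with a median of 0.13. Col3a1 (48929 against 14928 CPM, 1.71, 1.68 to 1.75), Ptn (1809 against 480, 1.91, 1.73 to 2.11), Cpz (795 against 216, 1.88, 1.60 to 2.17), Gsn (1.39), Lum (1.34) and Igf1 (1.16, 0.97 to 1.34) were all more than 2-fold higher. Ccn5, a matricellular CCN protein (3.08), the WNT antagonist Sfrp1 (3.02, 7 comparison UMIs), the homeobox factor Msx1 (2.86) and Lrrc17 (2.65) were further genes among the highest. Mmp27, a matrix metalloproteinase, had 105 UMIs against 0 and was at least 15.1-fold higher. Of the 11 measured universal-type fibroblast genes 8 were higher and 0 lower. Against the Dcn-positive cells 5 of the 11 were higher and 2 lower, with a median of 0.68. Cxcl1, a chemokine, stood at 2.68, but 318 of its 566 UMIs lay in 1 cell, and without it the ratio was 1.52. Stmn2, a neuronal tubulin-binding protein, was at least 14.5-fold higher, with 64 of 101 UMIs in 1 cell.

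Genes of the cartilage list and of the tendon and ligament list set the Postn-low cells apart in the other direction. The second list is not particular to tendon. Against Col2a1-rich cells 6 of its 11 measured genes were lower and 4 higher, with Comp at -2.69 and Fmod at -7.20. Of 11 measured cartilage genes 10 were lower in the Postn and Col1a1-rich cells and 0 higher, with a median of -5.10, and of 12 tendon and ligament genes 9 were lower and 0 higher (-3.44). Chad, a cartilage adhesion protein, stood at 4.09 against 5949.8 CPM (-10.51, -12.13 to -9.28), Comp, which joins collagen fibrils, at 1191 against 12943 (-3.44, -3.52 to -3.36), Fmod at 13.9 against 1131 (-6.35) and Thbs4 at 208 against 1189.6 (-2.51). Of 9 small leucine-rich proteoglycans 5 were lower and 3 higher, with Bgn at -1.27 and Lum in the other direction. Spp1 was at least 1281-fold lower, with UMIs in 16 of the 32 cells. Bglap was lower by -11.69, which rested on the 2 Bglap-rich cells described above: without them it stood at 8.38 CPM in the other 30 and the ratio was -0.36. Chad was at -10.65, Frzb, a WNT antagonist of cartilage, at -10.04 and Cilp2 at -8.35 without those 2 cells.

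**Figure D3:**
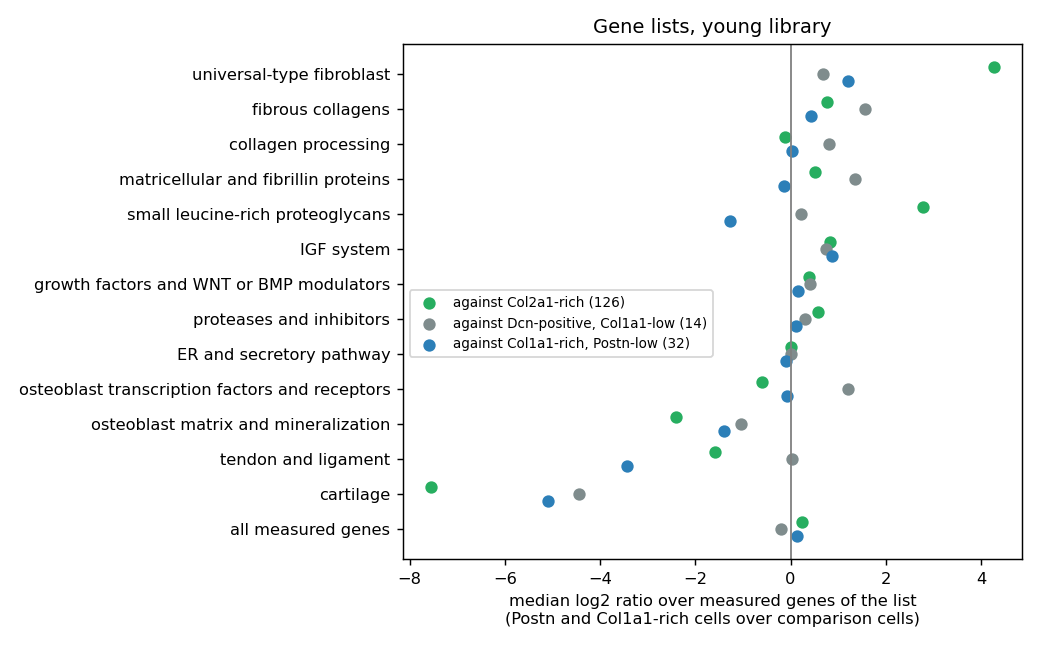
Median log2 ratio of each gene list, 60 Postn and Col1a1-rich cells over each of 3 groups of young cells, over the measured genes of the list; the bottom line shows all measured genes. The cartilage list lies at -4.45 or lower against every group, fibrous collagens lie above the median of all genes, and bone matrix genes lie between -2.40 and -1.05.

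The endoplasmic reticulum and secretory list had medians of 0.02, 0.01 and -0.09 against the Col2a1-rich, Dcn-positive and Postn-low cells, where all genes had 0.25, -0.20 and 0.13, at 0.742% of the UMIs of the 60 cells. Bone transcription factors and receptors had -0.60, 1.20 and -0.07, with Creb3l1 and Msx1 at least 2-fold higher against the first 2 groups, and Runx2 too sparse (4 UMIs) to give a direction. The IGF list had 0.83, 0.75 and 0.87. Stress and early response genes had -1.11, -0.33 and -0.66, the second of which is smaller than the 0.36 that TMM scaling adds. Fos stood at 1934 CPM against 5208 in the Col2a1-rich, 2171 in the Dcn-positive and 3214 in the Postn-low cells.

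Among the 60 cells themselves, Ptn ran from 0 in 25 cells to 417 UMIs. Correlations here are over the 60 cells of 1 library on log2(CPM + 1), which share their depth and handling, and are given as descriptions. Among 1457 genes ranked, those most like Ptn included Comp (Spearman 0.726, Pearson 0.719), Steap4 (0.620) and Spon1 (0.614). Mfap5, a microfibril protein (-0.672 and -0.557), Ctsl, a lysosomal protease (-0.643), and Cgref1 (-0.633) ran the other way. Ptn and total UMIs had a Spearman value of -0.243. Col1a1 and Col3a1 varied together (0.775 and 0.804), as did Col1a1 and Sparc (0.807), and Col1a1 was the gene most like Cpz (0.730 and 0.536). Postn had no close partner: Clec2l came first at 0.469, Col1a1 stood at 0.315 and Igf1 at 0.0166.

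A split at the ends of the Ptn range, made after these values were seen, shows the sizes. It sets 20 cells with at least 20 Ptn UMIs against 25 cells with 0, at median depths of 18400 and 20631 UMIs, with leukocyte transcripts in 3 and 4 of them. The remaining 15 cells had 1 to 19 Ptn UMIs, and 8 of these carried leukocyte transcripts. Comp stood at 2962 against 209.7 CPM (log2 ratio 3.82, 3.54 to 4.12) and was found in 18 of 20 against 6 of 25 cells. Myoc, the secreted glycoprotein myocilin, stood at 2313 against 307 (2.91), Thbs4 at 410.2 against 85.8 (2.26) and Bgn at 3208 against 904 (1.83). Higher in the Ptn-free cells were Igfbp5 (572 against 3738 CPM, -2.71, -2.92 to -2.51), Sfrp4 (101 against 955, -3.25), Mfap5 (344 against 1702, -2.31), Cpz (416 against 1193, -1.52) and Mmp27 (1 against 101 UMIs, -6.18, -11.50 to -3.67). Col1a1 was 36741 against 72673 CPM (-0.98), Postn 2459 against 4297 (-0.81), Igf1 1501 against 1003 (0.58) and Dcn 7742 against 9564 (-0.30). Without cells that carry leukocyte transcripts, 17 against 21 cells, Comp was at 3.91, Myoc at 2.57, Mfap5 at -2.26 and Cpz at -1.24, while Igfbp5 moved to -2.07 and Sfrp4 to -2.58. Single cells weighed here too: 90 Comp UMIs lay in 1 of the Ptn-free cells, without which the Comp ratio was 6.22, and 586 Igfbp5 UMIs in 1, without which Igfbp5 was at -2.28. Over the 45 cells without leukocyte transcripts the Spearman value of Ptn was 0.743 with Comp and -0.686 with Mfap5.

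**Figure D4:**
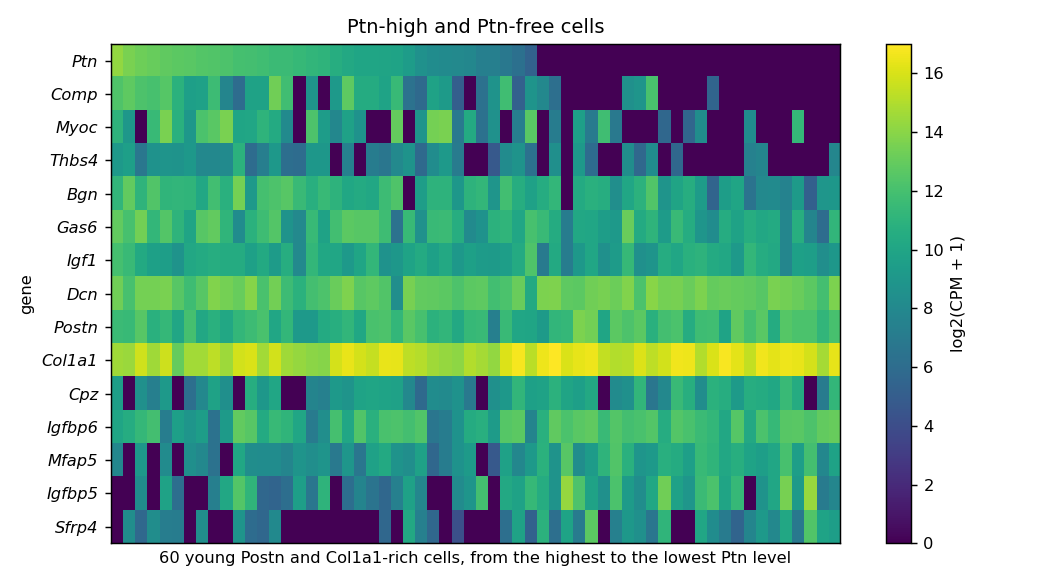
Levels of 15 genes, as log2(CPM + 1), in the 60 young Postn and Col1a1-rich cells ordered from the highest to the lowest Ptn level. Comp fades to the right with Ptn, Mfap5 and Sfrp4 fill towards the right, and Col1a1, Dcn and Igf1 are present in every column.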

How the data were processed

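Droplet RNA profiles of rat meniscus came from 1 aged and 1 young library. The authors deposited whole-number UMI counts per gene and barcode, without normalisation; they were made with Cell Ranger 6.1.1, per the file headers and the submitters' processing notes. Which build and annotation it used is not given in the sources used here. The files list 25399 genes and 8422 aged and 9914 young barcodes with 47228750 and 65051972 UMIs, of which 2337 and 1141 barcodes failed the limits on genes and mitochondrial UMIs. No doublet caller was run. Cells were left out as alternatives instead: those with leukocyte transcripts and those in the top 8% of UMIs.

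Counts were summed over the cells of a class and scaled to 1000000 (CPM); a 3' UMI count does not grow with transcript length. Levels carry exact Poisson intervals, shares Clopper-Pearson intervals and ratios exact conditional binomial intervals, all at 95% and for counting error only. For a share of 0 the printed upper bound is instead 3 divided by the number of cells, which is tighter than the Clopper-Pearson limit. A gene with 0 counts on 1 side was set against 3 counts over the class and is given as a bound. Genes with at least 20 summed counts were measured, and at least 2-fold was counted by size alone. No test or p-value was made, since each age has 1 library and the cells were chosen by these counts. Shares of cells with a UMI were also taken after thinning to 2000 UMIs. The ratio computation was tested on simulated data.

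The genes named were the 20 most abundant, the genes of the lists, and in each comparison the 10 largest ratios in each direction among genes with at least 50 CPM and 100 summed counts, without mitochondrial, ribosomal, haemoglobin, immunoglobulin and uncharacterised genes (also those with placeholder symbols). Not all of them are printed, and some genes that these rules select are left out of the text. The cells, lists and rules were chosen with earlier results of these data known. Of the list genes 392 were in the files and 16 are not used here. The comparison of Bglap-high with Bglap-low cells had no high cell, and the split by Ptn was added after the values were seen. Promoter windows of Bglap and Postn were matched by symbol in the RefSeq table of GRCr8. Alternatives covered the limits of the rule, the cell filter, leukocyte transcripts, scaling with edgeR 4.0.16 TMM and DESeq2 1.42.0 size factors, cell weights, thinning and the count minimum. The tools were R 4.3.3 and Python 3.11.15 with matplotlib 3.10.9, pandas 2.3.3, scipy 1.17.1 and numpy 2.4.6.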

Additional observations from a re-analysis of the deposited data

How the results depend on the processing

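Among the 14 to 17 settings tried per named ratio, the ratios that were at least 2-fold kept their sign except G0s2 against Dcn-positive and Stmn2 against Postn-low cells, which were at 0 when thinned, and outside the counts and shares listed here 1275 values stayed near the reported one and 188 moved. Depth limits most of them: thinning to 2000 UMIs leaves few counts, and a gene near 0 in 1 class then reaches its bound sooner. The ratio of Bglap against Col2a1-rich cells (-0.35 without cells that carry leukocyte transcripts), that of Sparc against Postn-low cells (0.02 without Ptprc) and that of Runx2 against them (0.64 without the Bglap-rich cells) took the other sign, none of them 2-fold apart.

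Without cells that carry leukocyte transcripts 45 young cells remained, and genes at least 2-fold higher and lower numbered 1148 and 997 against Col2a1-rich, 551 and 739 against Dcn-positive and 616 and 469 against Postn-low cells. The aged cells numbered 7 with at least 50 and 0 with at least 200 Col1a1 UMIs. Thinned to 2000 UMIs, genes at least 2-fold higher and lower numbered 386 and 307 against Col2a1-rich, 169 and 134 against Dcn-positive and 179 and 103 against Postn-low cells. With at least 100 summed counts they numbered 482 and 316, 184 and 132, and 171 and 105, and with at least 4 they numbered 2207 and 1299 against Col2a1-rich, 1551 lower against Dcn-positive, and 1293 and 873 against Postn-low cells; fewer or more genes were measured by construction. Against Dcn-positive cells TMM gave 1034 and 325 and DESeq2 size factors 1024 and 332. Against Col2a1-rich cells TMM gave 1024 and 1028 and DESeq2 size factors 969 and 1084. Shares with a UMI fell with thinning to 1000 UMIs to 0% for Bglap, 50% for Igf1, 43.3% for Cpz and 28.3% for Comp, and without thinning were 13.3%, 100% and 86.7% for Bglap, Igf1 and Cpz.

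Not run were the ratio of aged to young cells, with 1 aged cell, and the Bglap-high split at 3 or 50 UMIs or 1000 CPM and the genes most like Bglap, since no cell had more than 1 Bglap UMI. No paired analysis was possible because each age has 1 library and no value comes from a test.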

Other observations

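Other genes were confined to a few of the 60 young cells. Kera, keratocan, a proteoglycan of cornea and tendon, had 73 UMIs in 2 cells, with 59 and 14 each. The cell with 59 also held 30 of the 32 UMIs of Tnmd, tenomodulin, a tendon membrane protein, beside 31 Thbs4 and 64 Ptn UMIs. Wif1, a WNT inhibitor, had 30 of its 34 UMIs in 1 cell, and Serpine2, a protease inhibitor, 77 of 106. Tnc, tenascin-C, had 62 of 113 UMIs in 1 cell, and Tnn, tenascin-N, had 1 UMI in all.

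Inflammatory factors were sparse. Il6 and Ptgs2 were found in 3 and 6 cells, with 16 and 18 UMIs, and Ccl2, a monocyte-attracting chemokine, in 27 cells with 545 UMIs, 103 of them in the cell with most. That cell was also the one with 318 Cxcl1 UMIs. Proliferation genes were uneven. Tubb5 was found in 59 cells, Hmgb2 in 47, Pcna in 40 and Stmn1 in 26. Of 15 measured cell cycle genes 11 were at least 2-fold higher than in Col2a1-rich cells and 0 lower (median log2 ratio 1.89). Against Dcn-positive cells 0 of 14 were higher and 6 lower (-0.94). Against Postn-low cells 1 of 16 was higher and 3 lower (-0.31). Mki67 was sparse: 10 cells held a UMI of it, and the 5 with at least 3 all carried leukocyte transcripts. The part of those transcripts in the Mki67 counts was not tested. Adipoq had 0 UMIs, while Lpl, lipoprotein lipase, was found in 47 cells at 207 CPM.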
